A study of Sus scrofa with 9 samples.

Results

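The genes described here are 10 genes of the YAP and TEAD part of the Hippo pathway, taken from the 19535 genes of the deposited table by their symbols alone: YAP1, WWTR1, TEAD1, TEAD3, TEAD4, LATS2, CTGF, CYR61, ANKRD1 and AMOTL2. CTGF is the name in the table for the gene now called CCN2, and CYR61 is now called CCN1. All 10 had enough counts to be tested. RNA was sequenced from porcine valvular interstitial cells (PVICs), the cells that maintain the leaflets of the aortic valve, in 3 groups of 3 libraries. The control group was kept in DMEM. The OIM group was kept in osteogenic induced medium, with added insulin, ascorbic acid (50 µg/mL) and sodium dihydrogen phosphate (2 mmol/L), a medium used to make these cells deposit calcium. The bFGF group was kept in the same OIM with 50 ng/mL basic fibroblast growth factor, so no group received bFGF without OIM. All 3 groups were wild-type cells grown from primary cultures of aortic valve leaflets of pigs aged 4 to 5 months. The surface endothelium of the leaflets had been scraped off before digestion. By the methods of the study, cells of generation 3 or 4 were used throughout. The labels give 3 days of treatment, whereas the methods of the study give a shorter time before RNA extraction. No source used here says whether the 3 libraries of a group came from separate animals or cultures, so p-values measure only the spread between these libraries, which may be technical.

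YAP, encoded by YAP1, and TAZ, encoded by WWTR1, are transcriptional co-activators with no DNA-binding domain of their own. In the nucleus they bind TEAD proteins, which recognise DNA, and switch on genes of growth, adhesion and matrix. The Hippo kinases LATS1 and LATS2 phosphorylate YAP and TAZ, which are then held in the cytoplasm or degraded, so their activity is set largely by protein location and not by transcript level. CTGF and CYR61 are secreted matricellular proteins of the CCN family and, with ANKRD1 and AMOTL2, are among the transcripts most often read as targets of YAP and TAZ. LATS2 and AMOTL2 also restrain YAP and are themselves target genes, which closes a feedback loop. In fibroblast-like cells these targets respond to stiffness, stretch and cell density.

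The sequences before the target genes are shown first, since TEADs can bind near gene starts, although much of their binding is at distal enhancers, which this window does not cover. The letters GGAATG, the core of the TEAD recognition site, were searched on both strands in a window of 300 bases, from 250 bases before to 50 bases after the annotated start of each gene in Sscrofa11.1. They were found in 11.8% of 19525 such windows and in those of 5 of the 10 genes, CTGF, CYR61, ANKRD1, LATS2 and TEAD3. CTGF held 3 copies and ANKRD1 held 2, and 1.01% of all windows held 2 or more. The windows of the 4 target genes are given below from 5′ to 3′ on the strand of the gene, with every match to GGAATG or its reverse complement in capitals. The CTGF window lies on the plus strand at chr1:31674148-31674447, the CYR61 window on the minus strand at chr4:130395130-130395429, the ANKRD1 window on the minus strand at chr14:102612808-102613107 and the AMOTL2 window on the minus strand at chr13:75507311-75507610.
CTGF: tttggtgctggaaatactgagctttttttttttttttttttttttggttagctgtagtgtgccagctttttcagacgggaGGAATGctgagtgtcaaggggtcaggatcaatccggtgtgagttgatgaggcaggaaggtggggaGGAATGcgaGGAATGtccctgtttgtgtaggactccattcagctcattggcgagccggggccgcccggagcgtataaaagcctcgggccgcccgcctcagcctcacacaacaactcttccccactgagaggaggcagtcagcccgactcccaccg
CYR61: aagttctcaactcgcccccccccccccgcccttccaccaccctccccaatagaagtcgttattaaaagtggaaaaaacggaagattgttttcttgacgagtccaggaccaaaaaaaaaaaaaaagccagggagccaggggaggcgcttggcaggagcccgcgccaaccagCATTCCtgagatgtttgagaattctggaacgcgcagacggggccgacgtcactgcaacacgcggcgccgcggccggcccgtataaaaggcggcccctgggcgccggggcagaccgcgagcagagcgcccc
ANKRD1: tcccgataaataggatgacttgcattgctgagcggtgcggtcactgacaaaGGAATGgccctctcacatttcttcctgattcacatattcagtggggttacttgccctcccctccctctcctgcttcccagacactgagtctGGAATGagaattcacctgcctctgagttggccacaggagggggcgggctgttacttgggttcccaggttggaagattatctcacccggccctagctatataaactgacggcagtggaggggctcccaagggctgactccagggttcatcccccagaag
AMOTL2: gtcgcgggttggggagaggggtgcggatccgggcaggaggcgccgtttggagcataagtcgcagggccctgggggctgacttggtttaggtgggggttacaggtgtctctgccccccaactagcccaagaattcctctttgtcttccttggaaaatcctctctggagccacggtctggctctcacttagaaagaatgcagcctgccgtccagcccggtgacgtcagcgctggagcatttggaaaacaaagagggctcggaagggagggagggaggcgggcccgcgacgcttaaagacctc

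With positions counted from the start, in CTGF the TEAD letters began at -170, -105 and -96, all on the strand of the gene. In ANKRD1 they began at -199 and -108, and between them, from position -174, stood the only match of the 10 genes to TGANTCA, the letters of the AP-1 site, which is not capitalised above. These letters, searched on both strands, were present in 6.06% of all windows. CYR61 held 1 copy on the opposite strand, from -80 to -75. The LATS2 copy spanned the start itself and the TEAD3 copy lay from position 17 to 22, where the annotated start of TEAD3 is the start of its coding sequence. AMOTL2, YAP1, WWTR1, TEAD1 and TEAD4 held none. The CArG box, the site of serum response factor, was in 1.53% of windows and in 0 of the 10. No match overlapped another, and a match of letters is a description of the sequence and not a measured site.

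**Figure D1:**
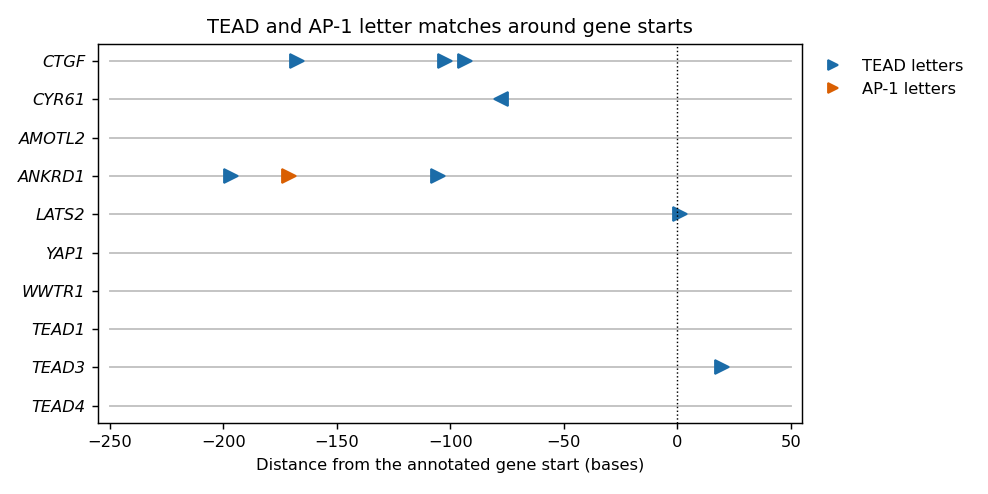
Positions of TEAD and AP-1 letter matches around the annotated starts of the 10 genes, in bases from the start (dotted line), with arrowheads pointing right for the strand of the gene and left for the opposite strand. The 3 matches of CTGF and the 3 of ANKRD1 all lie before the start, and 5 genes have no match.

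Whole-number counts summed to between 57075793 and 64723837 per library in control, 57682710 and 67371523 in OIM and 46773376 and 48270827 in bFGF. Levels are given as CPM, which are counts scaled to library size and by TMM factors (a correction for library composition), and these factors were 0.937 to 0.967 in control and OIM and 1.1 to 1.11 in bFGF. With library totals alone the median of all genes moved by 0.221 (log2) in bFGF against OIM, and the calls higher in bFGF rose from 49% to 68.8% of all calls. OIM replicate 2 stood apart from the other OIM libraries, with a mean chi-square per gene of 18.8 and 18.9 against them, where all other pairs within groups gave 4.66 to 11.5. It held the lowest OIM level of 9 of the 10 genes. Interstitial cell markers, which include COL1A1, COL3A1, VIM and PDGFRA, were abundant in every library, with a summed level of 37132 to 69810 CPM. In bulk RNA, fewer cells of a type and less RNA per cell cannot be told apart.

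In bFGF against OIM, the question was which transcripts move when bFGF is added to cells already in osteogenic medium. The 4 target genes all fell, with CYR61 lower by 5.1-fold, ANKRD1 by 4.52-fold, CTGF by 3.46-fold and AMOTL2 by 3.29-fold. LATS2 and TEAD3 were lower by 1.66-fold and 1.44-fold. A gene was called where its adjusted p in edgeR did not exceed 0.05 and its log2 fold change reached 0.5 in either direction. By this rule 6 of the 10 genes were called lower, beside 18.4% of all genes tested, and 0 were called higher, beside 17.7%. DESeq2 also called 0 higher and 6 lower, and 1 gene, YAP1, was higher at an unadjusted p under 0.05, beside 35.0% of all genes. Library totals alone, or leaving out OIM replicate 3, gave 5 lower in place of 6, since the call of TEAD3 ended. With library totals 12.4% of all genes were called lower and 27.3% higher. The 3 libraries of each group did not overlap for 9 of the 10 genes, 8 of them lower in bFGF, beside 72.1% of all genes not overlapping in either direction. The median log2 fold change of the 10 genes was -0.628, against -0.00293 over all 13662 genes tested.

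In OIM against control, which asks what the osteogenic medium itself moved, ANKRD1 alone was called, higher by 1.6-fold. Thus 1 of 10 was called higher, beside 1.49% of all genes, and 0 were called lower, beside 0.864%. The ANKRD1 libraries of OIM and control overlapped, and its call ended when OIM replicate 3 was left out. At an unadjusted p under 0.05, 7 of the 10 were higher and 0 lower, beside 14.2% and 12.0% of all genes, and 6 of those 7 lay under the fold limit. DESeq2 likewise called 1 higher and 0 lower. The libraries did not overlap for 3 genes, YAP1, WWTR1 and TEAD4, all higher in OIM, beside 28.8% of all genes not overlapping. The median log2 fold change of the 10 genes was 0.107, against -0.00191 over all genes.

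bFGF against control shares its libraries with both comparisons above and is given for completeness. Of the 10 genes, 5 were called lower, beside 20.0% of all genes, and 0 were called higher, beside 18.9%. YAP1 and TEAD4 were higher at an unadjusted p under 0.05, beside 35.5% of all genes, and DESeq2 called the same numbers, 5 lower and 0 higher. No gene had overlapping libraries, beside 73.7% of all genes not overlapping, and 8 of the 10 were lower in bFGF than in control. The median log2 fold change was -0.512, against -0.0161 over all genes.

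**Figure D2:**
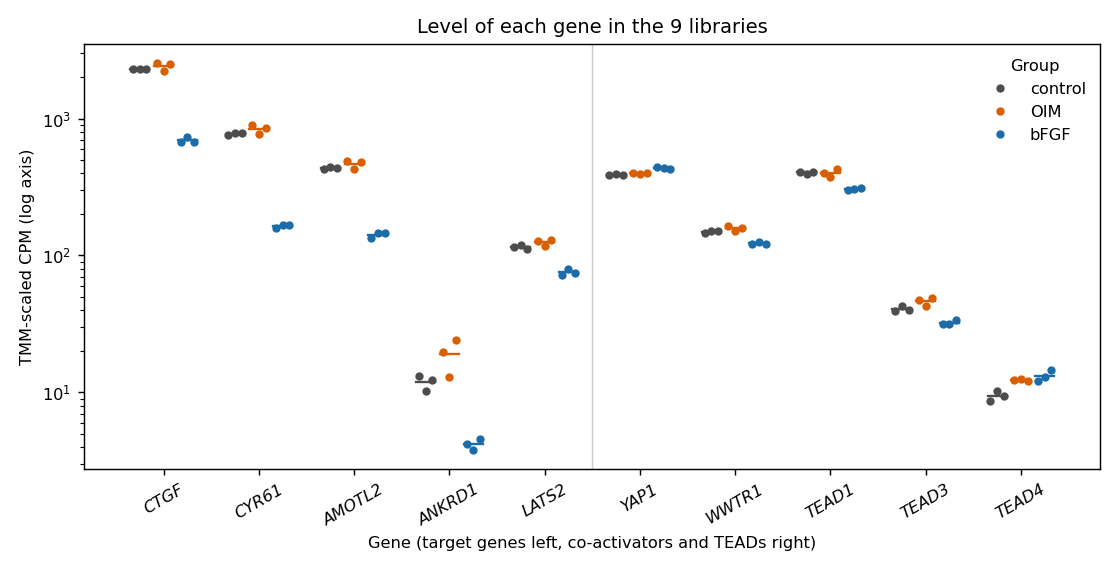
TMM-scaled CPM (log axis) of each of the 10 genes in the 9 libraries, by group, with a short line at the mean of each group. The bFGF libraries of CTGF, CYR61, AMOTL2, ANKRD1 and LATS2 lie below all control and OIM libraries, while those of YAP1 lie above them.

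YAP1, the first of the pair of co-activators, is on chromosome 9 from 32811629 to 32924926. Its level was 387, 392 and 387 CPM in the control libraries, 402, 395 and 398 CPM in OIM and 444, 436 and 427 CPM in bFGF. Every bFGF library was above every OIM library, and every OIM library was above every control library. The bFGF difference was small, with a log2 fold change of 0.13 (SE 0.0319) and an adjusted p of 0.00127 in edgeR. This is short of the fold limit, as is the 0.35 that library totals alone gave. The log2 fold change of OIM against control was 0.03 (SE 0.0319, adjusted p = 0.548 in edgeR), which is not past the test although the libraries did not overlap.

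WWTR1, which encodes TAZ, is on chromosome 13 from 89742980 to 89889547. Its level was 147, 151 and 150 CPM in control, 164, 152 and 159 CPM in OIM and 121, 126 and 121 CPM in bFGF. The bFGF libraries lay below all others, where those of YAP1 lay above. The log2 fold change of bFGF against OIM was -0.37 (SE 0.0384, adjusted p = 4.99e-08 in edgeR), again short of the fold limit, and it was -0.14 when only library totals were used. Against control, OIM gave 0.08 (SE 0.0381, adjusted p = 0.168 in edgeR).

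Of the TEAD genes, whose proteins hold the co-activators on DNA, TEAD1 is on chromosome 2 from 46396490 to 46670619. It was at 409, 395 and 409 CPM in control, 402, 374 and 427 CPM in OIM and 301, 306 and 310 CPM in bFGF. Control and OIM overlapped and bFGF lay below both. bFGF against OIM gave a log2 fold change of -0.39 (SE 0.0414, adjusted p = 5.82e-08 in edgeR), under the fold limit, and library totals alone gave -0.17. OIM against control gave -0.01 (SE 0.0412, adjusted p = 0.899 in edgeR), and 0.04 without OIM replicate 2, so its sign was not fixed.

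TEAD3, on chromosome 7 from 31337890 to 31351452, was at 39.2, 42.9 and 40.2 CPM in control, 47.2, 42.8 and 48.9 CPM in OIM and 31.3, 31.4 and 33.6 CPM in bFGF. The bFGF libraries were the lowest, and OIM replicate 2 fell within the control range. TEAD3 was called lower in bFGF than in OIM, with a log2 fold change of -0.53 (SE 0.0597, adjusted p = 1.55e-07 in edgeR). That value is close to the limit, and it became -0.49 without OIM replicate 3 and -0.30 with library totals alone, which ended the call. In OIM against control the log2 fold change was 0.18 (SE 0.0588, adjusted p = 0.0441 in edgeR), under the fold limit. The adjusted p was above 0.05 in 7 of the 9 fits that each left out 1 library, from 0.0503 to 0.175, and with only the 2 groups compared (0.0582), and it was 0.00522 without OIM replicate 2.

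TEAD4, on chromosome 5 from 67130392 to 67167579, was low in all groups. It was at 8.66, 10.2 and 9.41 CPM in control, 12.3, 12.5 and 12.1 CPM in OIM and 12, 13 and 14.6 CPM in bFGF. Control lay below both other groups, which overlapped. The log2 fold change was 0.38 in OIM against control (SE 0.0938, adjusted p = 0.00858 in edgeR) and 0.10 in bFGF against OIM (SE 0.0926, adjusted p = 0.351 in edgeR). The latter was 0.32 with library totals alone (adjusted p = 0.00436 in edgeR), short of the fold limit, and between 0.02 without bFGF replicate 3 and 0.16 without bFGF replicate 1. In bFGF against control it was 0.48, just under the fold limit, and it passed the limit at 0.54 without control replicate 2, 0.50 without OIM replicate 2, 0.55 without bFGF replicate 1 and 0.71 with library totals alone, a scaling that called 28.8% of all genes higher in that comparison.

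LATS2 encodes a kinase that phosphorylates YAP and TAZ and lies on chromosome 11 from 1225523 to 1265970. Its level was 116, 120 and 111 CPM in control, 127, 117 and 129 CPM in OIM and 72.4, 79.2 and 73.9 CPM in bFGF. Control and OIM overlapped, and bFGF lay well below both. It was called lower in bFGF than in OIM, with a log2 fold change of -0.73 (SE 0.0479, adjusted p = 4.09e-11 in edgeR), while OIM against control gave 0.11 (SE 0.047, adjusted p = 0.153 in edgeR), with 0.15 without OIM replicate 2 (adjusted p = 0.0225) and 0.08 without control replicate 3 (adjusted p = 0.425) or without OIM replicate 3 (adjusted p = 0.38). Against control, bFGF gave -0.62, a call that library totals alone ended at -0.40.

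CTGF, a matricellular protein that promotes matrix production by fibroblasts, is on chromosome 1 from 31674398 to 31677697. It was at 2317, 2301 and 2286 CPM in control, 2531, 2209 and 2491 CPM in OIM and 677, 733 and 679 CPM in bFGF. The highest bFGF library was thus far below the lowest of the other 6. The log2 fold change of bFGF against OIM was -1.79 (SE 0.0452, adjusted p = 1.96e-17 in edgeR). OIM against control gave 0.07 (SE 0.0437, adjusted p = 0.36 in edgeR), with OIM replicate 2 below the control libraries and the other OIM libraries above them. Without that library the value was 0.13 (adjusted p = 0.00675 in edgeR), still short of the fold limit, and it was 0.03 without OIM replicate 1 and 0.04 without OIM replicate 3.

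CYR61, the other CCN gene of the 10, encodes an integrin-binding matrix protein and is on chromosome 4 from 130392404 to 130395179. It was at 752, 783 and 778 CPM in control, 896, 777 and 851 CPM in OIM and 159, 167 and 168 CPM in bFGF. It had the largest fall of the 10, with a log2 fold change of -2.35 (SE 0.0457, adjusted p = 5.13e-19 in edgeR), the 287th lowest of the 13662 genes tested. OIM against control gave 0.13 (SE 0.0431, adjusted p = 0.0591 in edgeR), and 0.18 without OIM replicate 2 (adjusted p = 0.000317 in edgeR) but 0.08 without OIM replicate 1 (adjusted p = 0.305), all under the fold limit.

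ANKRD1 encodes an ankyrin repeat protein of muscle and stretched cells and lies on chromosome 14 from 102603777 to 102612857. It was at 13.1, 10.2 and 12.2 CPM in control, 19.8, 12.9 and 24.3 CPM in OIM and 4.18, 3.81 and 4.58 CPM in bFGF. OIM replicate 2 lay within the control range and the other OIM libraries above it, and bFGF lay below all. The log2 fold change was 0.68 in OIM against control (SE 0.157, adjusted p = 0.00559 in edgeR) and -2.18 in bFGF against OIM (SE 0.173, adjusted p = 7.89e-10 in edgeR). The call in OIM rested on the library: it was 0.46 without OIM replicate 3, under the fold limit, and 0.90 without OIM replicate 2. In bFGF against OIM, leaving out OIM replicate 2 gave -2.38.

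AMOTL2, an angiomotin family protein of cell junctions that can hold YAP outside the nucleus, is on chromosome 13 from 75490936 to 75507360. Its level was 429, 442 and 432 CPM in control, 492, 430 and 483 CPM in OIM and 135, 145 and 146 CPM in bFGF. The control and OIM libraries overlapped, and no bFGF library came near them. bFGF against OIM gave a log2 fold change of -1.72 (SE 0.0467, adjusted p = 5.75e-17 in edgeR), beside the -1.79 of CTGF. OIM against control gave 0.11 (SE 0.0449, adjusted p = 0.128 in edgeR), with 0.17 without OIM replicate 2 (adjusted p = 0.00138 in edgeR) and 0.07 without OIM replicate 1 (adjusted p = 0.421).

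**Figure D3:**
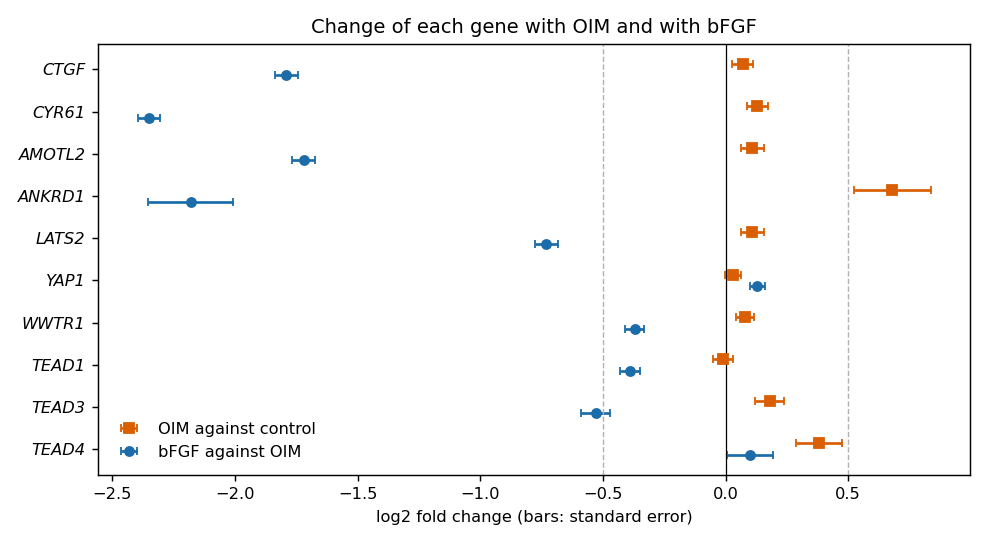
log2 fold changes of the 10 genes in OIM against control (squares) and in bFGF against OIM (circles), with standard errors as bars and dashed lines at the fold limit of 0.5 in either direction. The 4 target genes CTGF, CYR61, ANKRD1 and AMOTL2 lie between -2.35 and -1.72 in bFGF against OIM, and the largest value in OIM against control is 0.68, that of ANKRD1.

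Ratios of 2 genes in 1 library do not depend on library size or on TMM, and 3 such ratios were compared over the 3 groups with an exact permutation test, whose smallest possible p is 0.00357. WWTR1 had 0.384 counts per YAP1 count in control, 0.397 in OIM and 0.282 in bFGF. On the log2 scale this ratio was -1.38 ± 0.0115, -1.33 ± 0.0432 and -1.83 ± 0.04 (SD, n = 3 each; exact permutation p = 0.0107, adjusted p = 0.0107). All bFGF libraries lay below those of the other groups, which overlapped. TEAD4 had 0.0232 counts per TEAD1 count in control, 0.0307 in OIM and 0.043 in bFGF. In log2 units the TEAD ratio was -5.43 ± 0.144, -5.03 ± 0.116 and -4.54 ± 0.119, with no overlap between any groups (SD, n = 3 each; exact permutation p = 0.00357, adjusted p = 0.00536). CTGF had 2.99 counts per CYR61 count in control, 2.86 in OIM and 4.22 in bFGF. Its log2 values were 1.58 ± 0.039, 1.52 ± 0.0272 and 2.08 ± 0.0603 (SD, n = 3 each; exact permutation p = 0.00357, adjusted p = 0.00536). The 2 CCN genes therefore did not fall in equal measure.

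**Figure D4:**
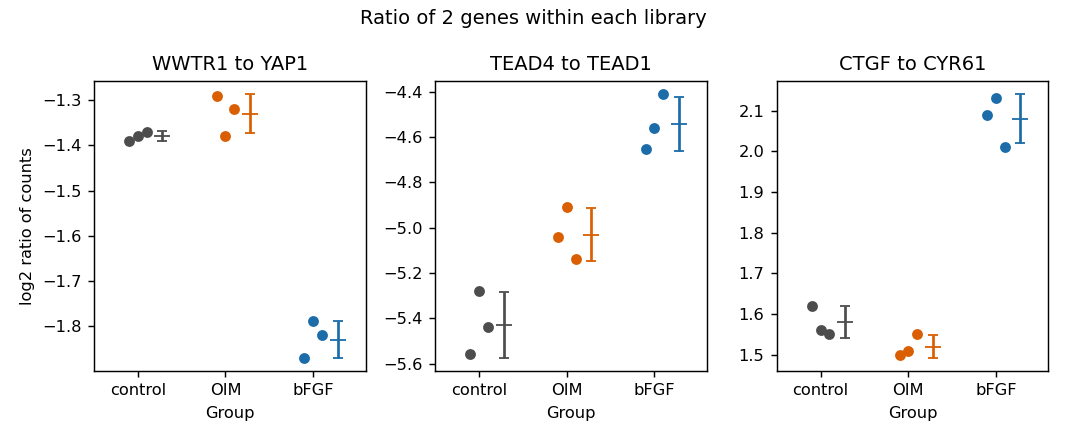
log2 ratio of counts of WWTR1 to YAP1, TEAD4 to TEAD1 and CTGF to CYR61 in each of the 9 libraries (points), with the mean and SD of each group beside them. bFGF lies apart from OIM in all 3 ratios, by -0.50, 0.49 and 0.56.

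To compare levels between genes, CPM was divided by exon length in kilobases. CTGF was the most abundant of the 10, at 980 ± 6.54 CPM per kilobase in control (SD, n = 3), 1026 ± 74.7 in OIM and 296 ± 13.5 in bFGF. CYR61 followed at 398 ± 8.47, 434 ± 31.3 and 85.2 ± 2.55 CPM per kilobase. AMOTL2 stood at 101 ± 1.6 and YAP1 at 89.1 ± 0.675 CPM per kilobase in control. In bFGF the level of YAP1, 99.9 ± 1.9 CPM per kilobase, exceeded that of AMOTL2, 33.1 ± 1.38, and that of CYR61. WWTR1 was at 33.8 ± 0.383 and TEAD1 at 35.8 ± 0.707 CPM per kilobase in control, and in OIM they were at 35.8 ± 1.34 and 35.6 ± 2.37, within their spread. By its longest transcript in place of all exons, TEAD1 was at 45.1 in control. TEAD3 was at 31.2 ± 1.48, LATS2 at 21.9 ± 0.889, TEAD4 at 6.4 ± 0.522 and ANKRD1 at 6.27 ± 0.795 CPM per kilobase in control, the last pair within their spread. The annotation of TEAD3 holds only coding sequence, so its level is per kilobase of coding length.

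Among 22 other genes of the Hippo kinase core and its regulators, 3 were called higher and 3 lower in bFGF against OIM, with a median log2 fold change of 0.0692. Over all genes 17.7% were called higher and 18.4% lower, so neither count stood above that background. AJUBA, a LIM protein that inhibits LATS kinases, fell from 17.6 to 7.33 CPM, with a log2 fold change of -1.27 (adjusted p = 6.85e-11 in edgeR). SAV1, the scaffold of the MST kinases, fell by 0.90 on the log2 scale (adjusted p = 1.55e-12 in edgeR), and RASSF1, a scaffold that binds MST kinases, fell by 0.59. MAP4K4, a kinase that can phosphorylate LATS, rose by 0.68 (adjusted p = 3.97e-12 in edgeR), and FRMD6, a FERM domain protein, and MOB1B, a co-activator of LATS, both named after their values were seen, rose by 0.58 and 0.55. LATS1, the paralog of LATS2, named outside the rule and after its value was seen, was at 99.6, 102 and 105 CPM in control, OIM and bFGF, and its log2 fold change with bFGF, 0.03 relative to OIM, was not past the test (adjusted p = 0.49 in edgeR). In OIM against control 0 of the 22 were called by edgeR or DESeq2, with 8 higher and 1 lower at an unadjusted p under 0.05, beside 14.2% and 12.0% of all genes. With library totals alone, 5 were called higher and 2 lower in bFGF against OIM, beside 27.3% and 12.4% of all genes under that scaling.

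Of the other TEAD gene and the 4 VGLL genes, whose proteins also bind TEADs, 3 could be tested. VGLL3 alone of these 3 was called, lower in bFGF than in OIM, from 235 to 80.7 CPM (log2 fold change -1.54, adjusted p = 9.57e-17 in edgeR). Over all genes 18.4% were called lower and 17.7% higher. TEAD2, likewise named outside the rule, had a log2 fold change of 0.38, short of the fold limit. It passed that limit when only library totals were used, a scaling that called 27.3% of all genes higher.

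Of 20 further genes known as YAP and TEAD targets, 19 could be tested, and with bFGF relative to OIM 5 were called higher and 10 lower (median log2 fold change -0.571). Beside them, 17.7% of all genes were called higher and 18.4% lower. F3, which encodes tissue factor, fell from 53.1 to 2.02 CPM (log2 fold change -4.71, adjusted p = 2.9e-14 in edgeR), and GADD45B, a stress response gene, from 41.6 to 3.08 CPM (log2 fold change -3.75, adjusted p = 5.55e-16 in edgeR). BIRC5, which encodes survivin and is expressed in dividing cells, rose 3.71-fold to 41.2 CPM (log2 fold change 1.89), and NT5E, the CD73 ectonucleotidase, rose from 202 to 555 CPM (log2 fold change 1.46). In OIM against control, F3 was called higher (log2 fold change 0.85) and IGFBP3, an IGF-binding protein, lower (log2 fold change -1.42), beside 1.49% and 0.864% of all genes. With library totals alone, 6 were called higher and 8 lower in bFGF against OIM, beside 27.3% and 12.4% of all genes.

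Of 15 other CCN and matricellular genes 14 could be tested, and with bFGF relative to OIM 12 were called lower and 1 higher (median log2 fold change -1.72), beside 18.4% and 17.7% of all genes. SPARCL1, a matrix protein related to SPARC, fell from 31.4 to 1.75 CPM (log2 fold change -4.16, adjusted p = 6.71e-15 in edgeR). THBS2, a thrombospondin, fell from 1296 to 97.8 CPM (log2 fold change -3.73, adjusted p = 2.59e-18 in edgeR). WISP2, a CCN gene, fell from 29.3 to 5.38 CPM (log2 fold change -2.45). THBS4, another thrombospondin, had a log2 fold change of -2.20 at a very low level, 1.47 CPM in OIM and 0.317 in bFGF, with 15 to 18 counts per bFGF library. The member called higher was POSTN, the periostin gene, at 600 CPM in OIM and 1645 in bFGF (log2 fold change 1.46), named after its value was seen. In OIM against control, 3 were called higher and 0 lower, by DESeq2 too, beside 1.49% and 0.864% of all genes. These 3 were NOV at a log2 fold change of 0.69, SPARCL1 at 0.66 and WISP1, named after its value was seen, at 0.64. At an unadjusted p under 0.05, 7 of the 14 were higher and 2 lower, beside 14.2% and 12.0% of all genes. NOV and WISP1, like CTGF and CYR61, are CCN genes.

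**Figure D5:**
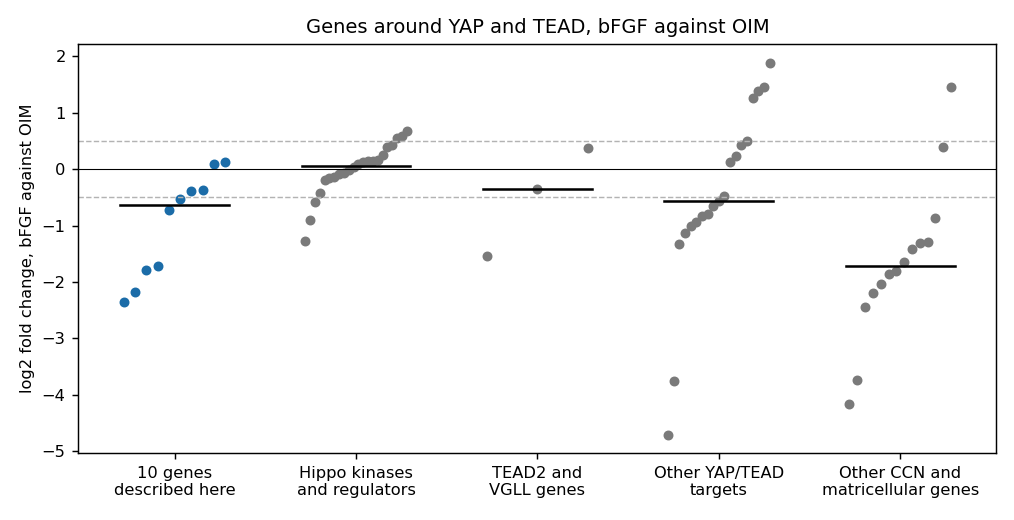
log2 fold change in bFGF against OIM of the 10 genes (blue) and of the tested genes of 4 related lists (grey), sorted within each list, with a line at each median and dashed lines at the fold limit of 0.5 in either direction. The medians are -0.628 for the 10 genes, 0.0692 for Hippo kinases and regulators, -0.571 for other targets and -1.72 for other matricellular genes.

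The genes whose pattern over the 9 libraries was most like that of CTGF, by the root mean square difference of centred log2 CPM among 12744 named genes, were TAGLN (0.0389), LIMCH1 (0.0421) and GPC6 (0.0562). TAGLN, which encodes the actin-binding protein transgelin, had a mean of 2682, 2925 and 819 CPM in control, OIM and bFGF. Nearest to CYR61 were ECM2 (0.0716), IGF2 (0.0724) and NFATC1 (0.0743). ANKRD1 had no neighbour as close, and its nearest were TMEM158 (0.208), RGS3 (0.211) and JPH2 (0.211). ANKRD1 had only 198 to 238 counts in the bFGF libraries, and the part of low counts in these larger differences was not tested. All of these genes were measured in the same 9 libraries in 3 groups, and genes are not independent replicates.

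Levels of other marker genes moved with bFGF as well. The summed level of 8 interstitial markers was 64432 to 69810 CPM in control, 60921 to 63808 in OIM and 37132 to 37466 in bFGF, and 4 of the 8 were called lower and 1, VIM, higher in bFGF against OIM, beside 18.4% and 17.7% of all genes. Most of the fall in the sum came from COL1A1 (25047 to 9886 CPM), COL1A2 (17751 to 8849 CPM) and COL3A1 (10893 to 6606 CPM), whereas LUM, PDGFRA and PDGFRB were not called. The summed level of 8 endothelial markers was 72.6 to 74.4, 86.8 to 87.9 and 167 to 177 CPM, and 6 of the 8 were called higher in bFGF against OIM, beside 17.7% of all genes. Most of the sum came from ERG, at 66.8 CPM in OIM and 137 in bFGF, and PECAM1 was called higher from 11.8 to 20.7 CPM and CDH5 from 5.8 to 8.24 CPM. KDR, TEK and CLDN5, the other genes called higher, had mean levels of 0.169, 0.74 and 0.0601 CPM in OIM and 1.17, 1.52 and 0.336 CPM in bFGF. VWF, at 0.303 and 0.228 CPM, and TIE1, at 1.85 and 2.03 CPM, were not called. The summed level of 6 blood and macrophage markers was 12.8 to 16.2 CPM in control, 14.1 to 15.5 in OIM and 8.25 to 8.75 in bFGF. CD3E was at 0 in all libraries, and 4 of the 6 could be tested. Of these 4, 1, CD14, was called lower in bFGF against OIM, beside 18.4% of all genes. All 8 proliferation markers were called higher in bFGF than in OIM, against the same 17.7% of all genes, with a summed level of 329 to 339 CPM in control, 350 to 485 in OIM and 1375 to 1419 in bFGF, and the 485 was OIM replicate 2. The part of these shifts in the changes of CTGF, CYR61, ANKRD1, AMOTL2 and LATS2 was not tested.

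Neighbouring transcripts were checked because the strand setting of the counting is not given in the sources used here. CYR61 lies inside an intron of ZNHIT6 on the opposite strand and shares 0 exon bases with it, and ZNHIT6 was at 49.4 CPM in OIM and 27 in bFGF. ANKRD1 shares 857 exon bases with RPP30 on the opposite strand. RPP30 was at 28 CPM in OIM and 35.6 in bFGF. It had 1827 to 1940 counts in the bFGF libraries where ANKRD1 had 198 to 238, and without the strand setting reads from the shared bases cannot be told apart, so the level of ANKRD1 is uncertain to that extent. Non-coding transcripts on the opposite strand of YAP1 and TEAD1 held at most 71.5 estimated counts in a library. Of 6179 circular RNAs in the table, 5 lie in 4 of the 10 genes, YAP1, TEAD1, TEAD4 and LATS2, and none had more than 5 counts in a library, too few to compare groups.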

How the data were processed

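RNA from control, OIM and bFGF PVICs was sequenced in 3 libraries per group, mapped to groups by their labels. The authors deposited 1 table with estimated counts that were not normalized: whole numbers for genes and circular RNAs, and partly fractional values for non-coding transcripts. The study's methods name Cutadapt and STAR with susScr11, whereas the submitters' processing notes name Trimmomatic, HISAT2 and StringTie with Sscrofa11.1. Labels and methods also differ in the library kit (ribosomal RNA removal against poly-A selection), so transcripts without a poly-A tail may be measured differently than either implies. The counting program and its strand setting are not given in the sources used here. The table has 19 columns with no name or value, which were not used.

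All genes were fitted together in R 4.3.3 by edgeR 4.0.16 (filterByExpr, TMM, quasi-likelihood, all 3 groups, 6 residual degrees of freedom, 13662 genes), with Benjamini-Hochberg adjustment over all genes tested. The common BCV (the spread between libraries beyond counting error) was 0.0602. The test was tried on simulated data first. Alternatives were DESeq2 1.42.0, other scaling and filters, other fold limits, a replicate block, 2-group fits and leaving out each library. Ratios were tested with exact permutation over all 1680 assignments of libraries to groups, adjusted over 3 ratios. Promoter windows and gene positions were read from the RefSeq genome and annotation of Sscrofa11.1.

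The 10 genes, the lists and the tests were chosen with earlier results of these data known. Named were the 10 genes, the called genes of each list with the strongest change (up to 4 for bFGF against OIM, up to 2 for OIM against control, with 10 or more counts on average in the higher group), and the 3 genes with the pattern nearest to CTGF, CYR61 and ANKRD1. LATS1, TEAD2, FRMD6, MOB1B, POSTN and WISP1 were named outside this rule, after their values were seen. Markers of other cell types were treated as lists. Whether paralogs such as TEAD1, TEAD3 and TEAD4 share reads in the authors' counting was not tested.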

Additional observations from a re-analysis of the deposited data

How the results depend on the processing

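Calls of the 10 genes depended mostly on the fold limit. With no fold limit, 3 were called higher in OIM against control, 1 in bFGF against OIM and 2 in bFGF against control. In bFGF against OIM 8 were lower, and in bFGF against control 8. With a limit of 1, 0 were called in OIM against control and 4 were lower in bFGF against OIM. With library totals alone, 1 was higher in bFGF against control, beside 28.8% of all genes. Leaving out each library in turn gave 0 to 1 higher in OIM against control and 0 to 1 higher in bFGF against control, and TEAD1 in OIM against control ranged from -0.06 to 0.04 with a change of sign without OIM replicate 2. Of the other Hippo and target genes, no limit and a limit of 1 called 14 and 1 in OIM against control, 39 and 11 in bFGF against OIM, and 38 and 12 in bFGF against control. Over all 13662 genes tested, the background of these counts, they called 1853 and 91, 9203 and 2461, and 9590 and 2756, higher and lower together. Apart from these limits, which fix the counts by construction, the cause was not tested. Over all alternatives, 517 of the single-gene values kept their call, 14 gained one, 8 lost one and 1 changed sign.

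Same-numbered libraries of different groups did not deviate together (correlations from -0.032 to 0.0035), so no pairing by number was seen. With 3 libraries per group, these values cannot exclude that same-numbered libraries shared an animal, day or batch. With a replicate block, 1 of the 10 genes was called higher in OIM against control and 6 lower in bFGF against OIM, and over all genes 309, 4917 and 5285 were called in the 3 comparisons. The block took the adjusted p of TEAD3 in OIM against control from 0.0441 to 0.0563. The lowest counts were those of ANKRD1, at 198 to 238 in bFGF, and TEAD4, at 472 to 618 in control, and these genes had the largest standard errors of the 10. Depth as a limit was not tested.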
